A study of Saccharomyces cerevisiae with 23 samples.

Results

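Dense clusters of Ty1 insertion sites at GAL10-GAL1 and at URA3 were mapped base by base in 2 insertion libraries of budding yeast. Ty1 is a retrotransposon, a mobile element that copies itself through RNA and inserts the DNA copy elsewhere. Deposited intervals that shared their chromosome, strand and 5′ end were counted as 1 site. The regions were GAL10-GAL1 on chromosome II (276253 to 280607) and URA3 with its flanks on chromosome V, and 3 of 6002 nuclear protein-coding genes were members. They held 402 of the 152129 nuclear sites of the galactose library, 237 at GAL10-GAL1 and 165 at URA3. In the dextrose library they held 21 of 11208, 10 and 11. The regions were chosen because their site density was high, so their densities are given as a description and nothing is tested on them.

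Both libraries came from BY4741, a haploid laboratory strain (MATa) with the alleles his3delta1, leu2delta0, ura3delta0 and met15delta0, carrying the plasmid pJEF2365. After an overnight culture in medium lacking uracil with 2% raffinose and 0.1% dextrose, 1 culture was held for 24 h in 2% galactose and 1 for 24 h in 2% dextrose. Both were then grown for 24 h in dextrose with uracil and for 24 h, again followed by 24 h, in dextrose with 1 mg/mL 5-FOA. The labels differ on whether the sugar step itself was done with or without uracil. The other 21 of the 23 samples of the series were nucleosome maps and were not analysed here. Each medium had a single library and no replicate, and every interval below is an exact 95% interval (Poisson for counts, Clopper-Pearson for shares) that covers counting error only. It treats sites as independent, which neighbouring sites of a strand may not be.

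GAL1 encodes galactokinase and GAL10 the epimerase and mutarotase of galactose use. They are transcribed away from each other from a shared promoter that the activator Gal4 switches on in galactose and that dextrose represses, and this promoter is widely used to drive genes on plasmids. URA3 encodes orotidine-5′-phosphate decarboxylase of uracil synthesis, is a common plasmid marker, and is selected for by medium lacking uracil and against by 5-FOA. The allele ura3delta0 removes the chromosomal gene. A read from a chromosome and a read from a plasmid copy of the same sequence align to the same coordinates. At GAL10-GAL1 and in the URA3 flanks the deposited positions therefore cannot tell them apart. By the stated genotype the strain has no chromosomal URA3 coding sequence to be read. The origin of the reads placed there was not tested. Distances to tRNA genes, densities, ranks and counts under uniform placement below are those of the reference coordinates, whichever copy was read. The sources used here do not give the parts of pJEF2365.

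The GAL10-GAL1 sites were packed into the shared promoter and the first bases of GAL10. Poisson segmentation of the galactose sites, which splits a stretch where the density changes, returned 1 dense block from 278224 to 278837 (R64 build). This block of 614 bp held 180 sites (95% interval 155 to 208), or 293 per kb. The 500 bp on its left held 8 sites and the 500 bp on its right held 6, so the block was 20.9 times as dense as its flanks. It was 46.6 times as dense as the nuclear genome over 2 kb from any tRNA gene, which held 6.29 sites per kb. The nearest tRNA gene lay 11774 bp away. Of 62 bins of 10 bp in the block, 49 (79.0%, 95% interval 66.8 to 88.3) held a site, against 6.79% of all nuclear bins and 4.77% of those over 2 kb from a tRNA gene.

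**Figure D1:**
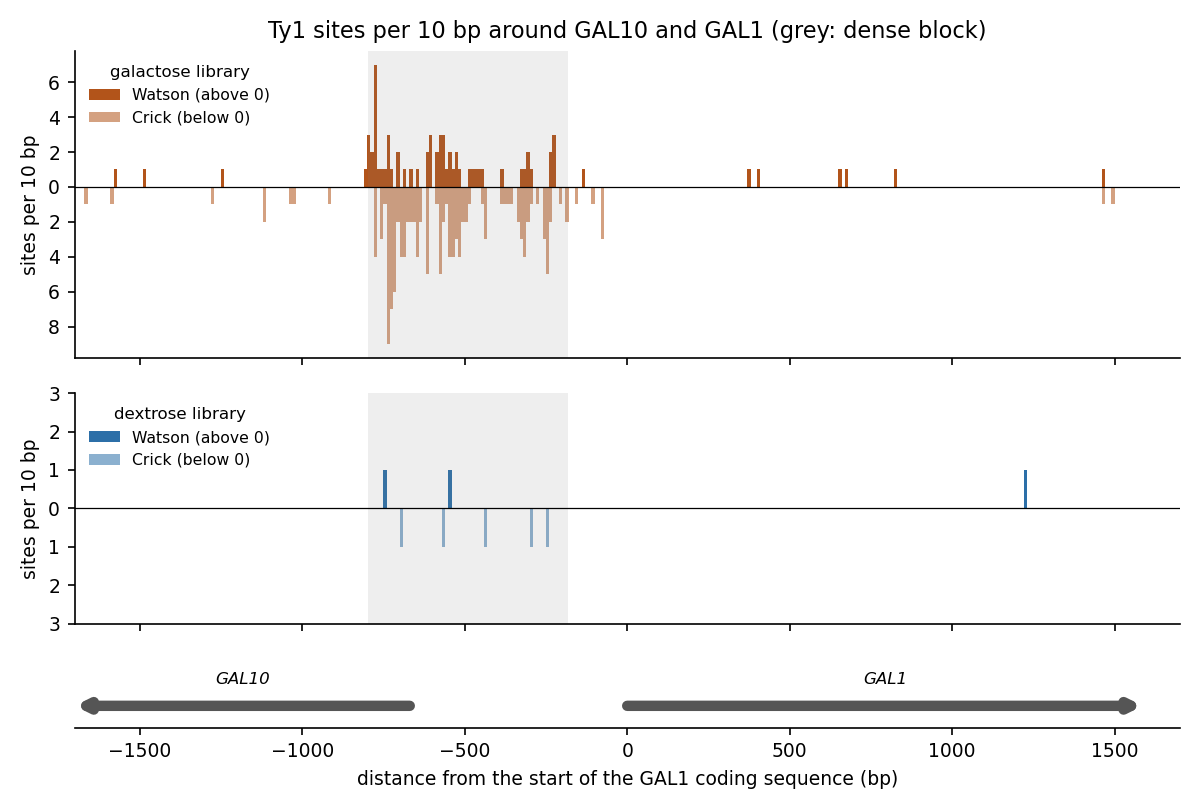
Sites per 10 bp (vertical axis, Watson strand above 0 and Crick strand below 0) against the distance from the start of GAL1 in bp, in the galactose library (top) and the dextrose library (bottom), with the genes as arrows (GAL10 runs on past the left border). The grey block holds 180 galactose sites and 7 dextrose sites, while the body of GAL1 holds 8 and 1.

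The block covered 129 bp of GAL10, namely the start of its coding sequence, and most of the 668 bp between the genes. The part inside GAL10 held 64 sites and all of its 13 bins were hit. The part between the genes held 116 sites. The remaining 183 bp before GAL1 held 6 sites. GAL10 outside the block held 43 sites over the rest of its coding sequence, and the body of GAL1 held 8 (95% interval 3.45 to 15.8) where uniform placement over the genome gives 20.003. GAL1 itself was therefore not dense, and its density of 5.04 sites per kb was close to the median of 5.39 over all protein-coding genes. Within the block the density was uneven. The 50 bp from 278251 to 278300 held 27 sites, those from 278451 to 278500 held 23, those from 278601 to 278650 held 3, and those from 278751 to 278800 held 15. The fullest 10 bp, from 278281 to 278290, held 12 sites.

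The left edge of the GAL10-GAL1 block was sharp to the base. No galactose interval covered any of the 109 bp before 278212, and 1 interval covered 278212 itself. At 278213, a total of 29 Crick intervals from 26 distinct sites ended, and 9 Watson intervals began. The Crick sites lay between 278245 and 278308, and the intervals ending there were 33 to 96 bases long, so their far ends differed while the near end was the same base. No interval reached 5 bases or more to both sides of 278213. The edge from segmentation, 278224, had 1 site in the 100 bp outside it, the Watson site at 278213, and 55 in the first 100 bp inside. Inside, the first 50 bp held 14 Watson and 8 Crick sites, and the first 100 bp held 21 and 34. No Crick site lay closer than 33 bp to the start of coverage, and the shortest interval in either file was 30 bases long.

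Coordinates at which the 3′ ends of intervals pile up are common in these libraries. Per the labels' protocols, the DNA was cut with MseI, which recognises TTAA, before adaptors were added. Over the nuclear genome, 3415 coordinates were the shared 3′ end of 3 or more galactose sites, and 47.8% of them had an opposite-strand end exactly 3 bases further on, against 16.7% or less at any other shift from -10 to 10 bases except 0, where 35.9% did. Inside the GAL10-GAL1 block such mirrored ends stood at 278541 (10 Watson sites) and 278544 (3 Crick sites), at 278407 (3) and 278410 (11), and at 278781 (4) and 278784 (3). The end at 278213 had no such mirror, with 0 Watson sites ending 3 bases before it. Of the 84343 distinct 3′ ends over 2 kb from any tRNA gene, none was shared by more sites than the 26 at 278213, and in the whole genome 5 were. No genome sequence was used here, so whether TTAA stands at any of these coordinates was not examined.

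**Figure D2:**
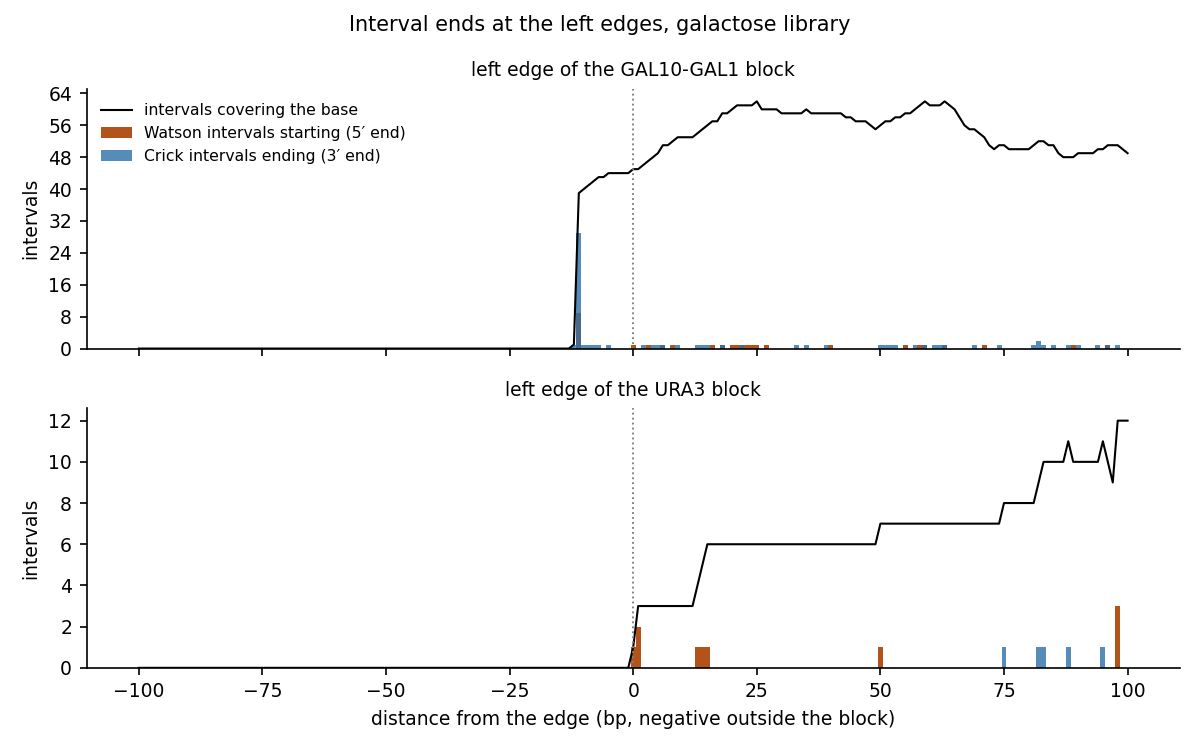
Galactose intervals covering each base (line), Watson intervals starting there and Crick intervals ending there (bars), by distance in bp from the segmentation edge of the GAL10-GAL1 block (top) and the URA3 block (bottom). At GAL10-GAL1, 29 Crick intervals end and 9 Watson intervals start on 1 base that lies outside the edge, and at URA3 the coverage starts at the edge with Watson intervals.

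The right edge was made of 2 steps. Coverage ran without a break from 278212 to 278837, stopped for 1 bp, and went on from 278839 to 278950 with 19 intervals from 6 sites. The last 100 bp inside the block held 19 sites, 5 on the Watson and 14 on the Crick strand. The 100 bp outside held 3. No interval crossed the edge at 278837. Of the 19 intervals beyond it, 14 began at the Crick position 278947 alone, and they were 37 to 47 bases long. After 278950 there was no coverage for 449 bp, a gap that takes in the start of GAL1. The galactose intervals at the promoter thus ended within GAL10 on the left and short of the GAL1 start on the right.

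Inside the GAL10-GAL1 block, Crick sites outnumbered Watson sites 120 to 60. The Watson share of 33.3% (95% interval 26.5 to 40.7) lay below the 49.9% (95% interval 49.7 to 50.2) of the nuclear genome, and it was 34.4% among the 64 sites seen with intervals of 96 bases, the length of a full read. Joining sites of a strand within 5 bp left 60 of the 180, and the strand share of those was not computed. Intervals of 96 bases made up 23.9% of the 268 intervals of the block. Those of 50 to 95 bases made up 60.8% and those of at most 49 bases 14.9%. The genome had 43.6%, 48.8% and 7.43%. The part inside GAL10 had 42.6% full-length intervals and the part between the genes 17.5%. At the left edge the first 100 bp inside held 59 intervals, 23 of them of 96 bases, with a median of 85 bases, whereas the 9 intervals outside had a median of 47 and none was of 96. At the right edge the last 100 bp inside held 23 intervals with a median of 78 bases, 10 of them of 96, and the 3 outside had a median of 51 and none of 96.

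Several positions between the genes were covered by many intervals, although the authors' file names state that duplicates were removed. The block had 1.49 intervals per site, against 1.12 over the genome and 1.24 over 2 kb from tRNA genes. The Crick position 278525 carried 17 intervals with 16 different 3′ ends and lengths of 55 to 91 bases. The Crick position 278511 carried 14 intervals that were all 77 bases long and ended at the same base, 278435. That base was the 3′ end of 24 Crick intervals from 10 sites and the start of 9 Watson intervals, as at the left edge, but here 48 other intervals passed it by 5 bases or more on each side. The Crick position 278452 carried 15 intervals of 43 to 47 bases. In the block 20 sites (11.1%, 95% interval 6.92 to 16.6) had 2 or more intervals. The share was 7.79% of nuclear sites and 15.4% of those over 2 kb from a tRNA gene, so the block was not above the latter. Of the 447 nuclear sites with 5 or more intervals (0.294% of all sites), 8 lay in the block. That is 4.44% of its sites, against 0.610% of sites over 2 kb from a tRNA gene. All 8 lay between the genes and none inside GAL10. At the left edge no site in the first 100 bp inside had more than 2 intervals, and the Watson site just outside, at 278213, had 9. At the right edge no site in the last 100 bp inside had more than 3, and the 100 bp outside had 1 each.

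The URA3 cluster covered the whole gene and its promoter. The dense block ran from 115948 to 117004 on chromosome V, 1057 bp in all, from 219 bp before the URA3 coding sequence (116167 to 116970) to 34 bp after it. It held 153 sites (95% interval 130 to 179), or 145 per kb, which is 23.0 times the density over 2 kb from tRNA genes. The nearest tRNA gene lay 14078 bp away. Of the sites, 126 (95% interval 105 to 150) lay in the URA3 coding sequence, where uniform placement gives 10.1. Another 22 lay upstream and 5 downstream. Of 106 bins of 10 bp, 78 (73.6%) held a site. Density was uneven here too. The 50 bp from 116001 to 116050 held 1 site, those from 116051 to 116100 held 7, and from 116151 to 117000 each 50 bp held between 2 and 13 sites.

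**Figure D3:**
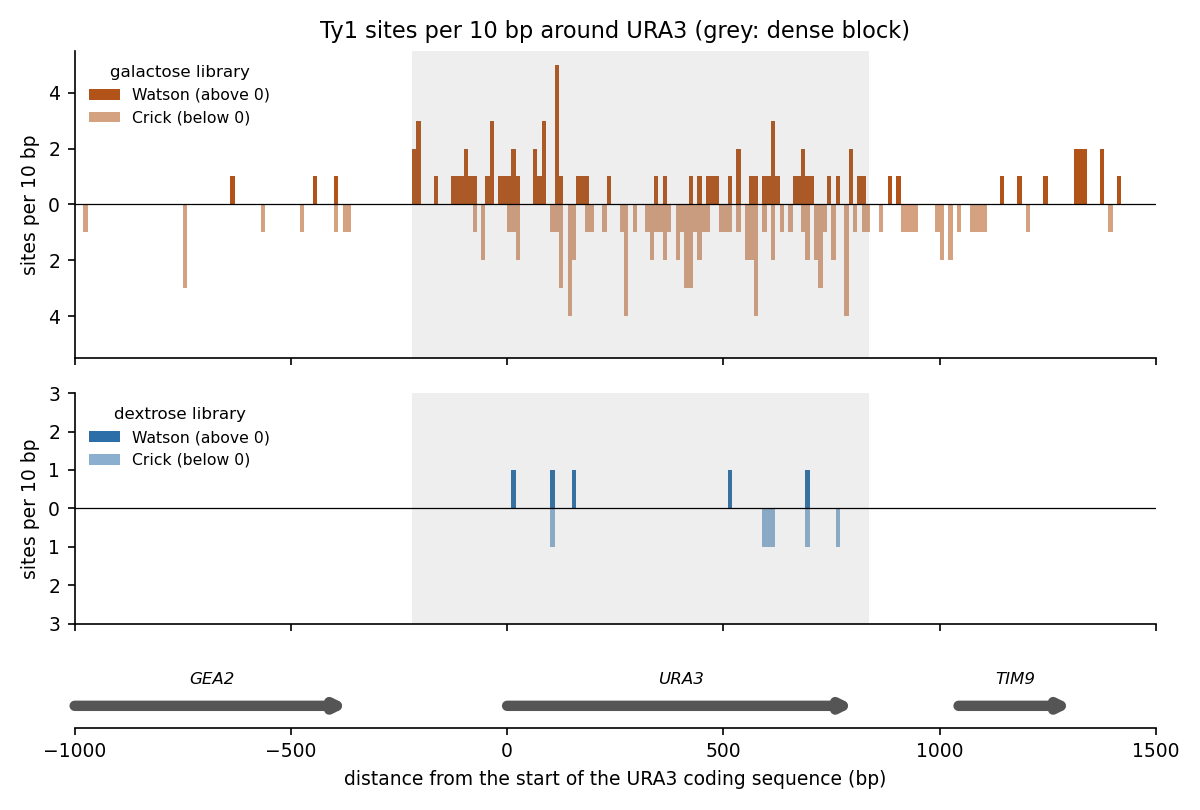
Sites per 10 bp (vertical axis, Watson strand above 0 and Crick strand below 0) against the distance from the start of URA3 in bp, in the galactose library (top) and the dextrose library (bottom), with the genes as arrows (GEA2 runs on past the left border). The grey block begins 219 bp before URA3, and all 11 dextrose sites lie inside the gene.

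The left edge of the URA3 block was also the start of coverage. The nearest interval to its left ended at 115800, at the last base of GEA2, and the next 147 bp were not covered. The block began with Watson sites at 115948 and 115949. All 7 sites in its first 100 bp were on the Watson strand, and the first Crick site was at 116087, which is 139 bp in. Upstream of the coding sequence 19 of 22 sites were on the Watson strand (86.4%, 95% interval 65.1 to 97.1), and in the coding sequence 48 of 126 (38.1%, 95% interval 29.6 to 47.2). These shares lie on opposite sides of an even split, and the Watson strand is the URA3 coding strand. No Crick interval reached below 116023.

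The right edge of the URA3 block was less sharp. The 500 bp to its right held 27 sites, so that the block was 2.68 times as dense as this side and 9.05 times as dense as the left side, which held 8. Coverage was continuous from 115948 to 117028, a run of 1081 bp, and then stopped for 20 bp. The next run started at 117049, where 5 Crick intervals ended and 3 Watson intervals began, with no interval passing by 5 bases on each side. At 117027, 4 Watson sites ended with no mirrored Crick end 3 bases on. Segmentation placed a lower density of 37.4 sites per kb from 117005 to 118179, over TIM9, which encodes a mitochondrial import protein, and RPR1, the RNA of RNase P, and 373 per kb from 118180 to 118594. RPR1 is read toward URA3 by RNA polymerase III, whose genes are the known targets of Ty1, and the densest stretch lay on its upstream side.

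Intervals at URA3 were close to the whole genome in length, but not to its part over 2 kb from tRNA genes. There 27.9% of intervals were of 96 bases, below the 95% interval of the URA3 block (40.2 to 56.2). Those of 96 bases made up 48.1% of the 160 intervals, those of 50 to 95 bases 43.8% and those of at most 49 bases 7.5%. At the left edge the first 100 bp inside held 10 intervals with a median of 91.5 bases, 2 of them of 96, and no interval began in the 100 bp outside. At the right edge the last 100 bp inside held 16 intervals with a median of 96 bases, and the 8 outside had a median of 47.5 and none was of 96. Here 6 intervals crossed the edge. The block had 1.05 intervals per site, 5 sites with 2 or more (3.27%), and none with 5 or more. The fullest positions, 116046 on the Watson strand and 116112 on the Crick strand, had 3 intervals each. Just outside the right edge the Watson position 117049 also had 3. Of the intervals, 99.4% had the top mapping score of 60, and 98.1% did at GAL10-GAL1, against 97.9% over the genome.

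Ty1 duplicates 5 bases of its target when it inserts. Insertions into 1 target in both orientations then give sites on opposite strands whose intervals overlap by 5 bases. Over the nuclear genome 19701 of the 75947 Watson galactose sites (25.9%) had such a Crick partner, 2.59 times the median of 7619 pairs at the other overlaps from 1 to 20 bases. Over 2 kb from tRNA genes 3013 of 34666 (8.69%) did, 8.71 times the median of the other overlaps. There the overlaps of 4 and 6 bases gave 2404 and 1773 pairs, so the rise was not confined to 5 bases. In the URA3 block there were 10 pairs among 69 Watson sites (14.5%, 95% interval 7.17 to 25.0), with 2 to 8 pairs at every other overlap. All 10 lay in the coding sequence. In the GAL10-GAL1 block there were 17 pairs among 60 Watson sites (28.3%, 95% interval 17.5 to 41.4), but other overlaps gave 7 to 17 pairs with a median of 14. An overlap of 5 bases thus had the highest count at URA3, while at GAL10-GAL1 it was equalled by overlaps of 2, 6 and 18 bases.

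**Figure D4:**
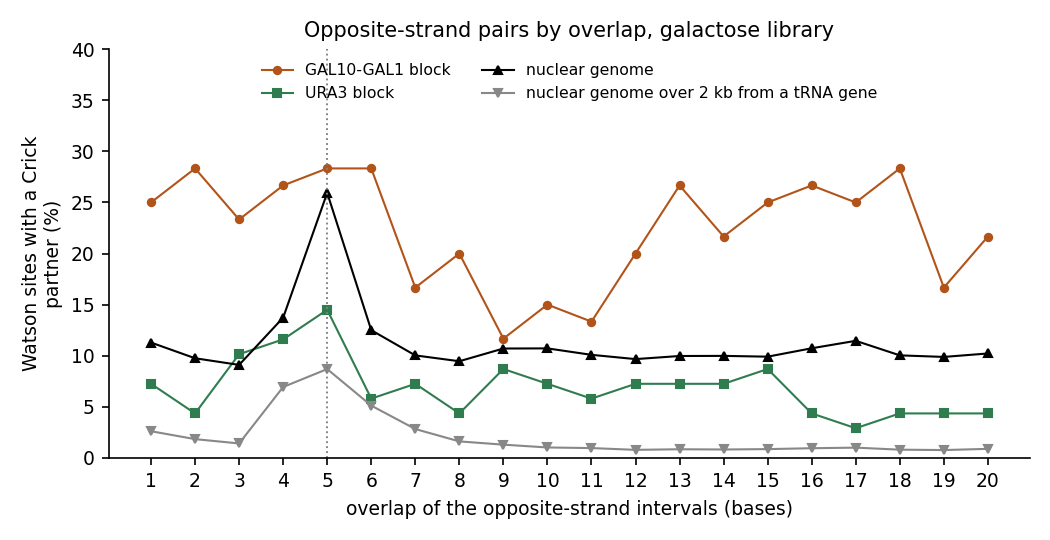
Share of Watson galactose sites with a Crick site whose interval overlaps theirs by 1 to 20 bases (horizontal axis), in percent, for both blocks and the nuclear genome. The genome peaks at 5 bases with 25.9%, the URA3 block has its highest share there (14.5%), and the GAL10-GAL1 block has 28.3% at 5 bases and as much at 3 other overlaps.

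Near the edges, pairs were found at 1 of the 4. At the left GAL10-GAL1 edge the first 100 bp inside held 7 pairs and the 100 bp outside held 0. At its right edge, and at both URA3 edges, the 100 bp on each side held 0. These zeros rest on few sites. Inside the left URA3 edge there were 7 Watson and 0 Crick sites, and outside it none, so no pair could form. Outside the left GAL10-GAL1 edge there were 1 and 0. Outside the right edges there were 1 and 2 at GAL10-GAL1 and 2 and 3 at URA3. Inside the right edges there were 5 and 14, and 6 and 9. No lack of pairs is read from these windows. The flanks of 500 bp held 0 pairs on each side of each block, with 1 to 11 Watson sites each. Among sites with intervals of 96 bases, the URA3 block had 5 pairs against a median of 1 at other overlaps. The GAL10-GAL1 block had 0 pairs among 22 Watson sites, also against a median of 1, and the 95% interval of its share reached 15.4%. The genome had 18.1% in that class, and the part over 2 kb from tRNA genes had 5.02%. Joining sites of a strand within 5 bp left 60 of the 180 sites of the GAL10-GAL1 block, a ratio of 3. The ratio was 1.76 at URA3, 1.81 over the genome and 1.27 over 2 kb from tRNA genes. Such a ratio depends on site density, the measure that chose the regions, so it is a description only.

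In dextrose the same stretches stood out, on few sites. The GAL10-GAL1 block held 7 dextrose sites (95% interval 2.81 to 14.4), 2 inside GAL10 and 5 between the genes, and 2 of the 7 were on the Watson strand. The URA3 block held 11 (95% interval 5.49 to 19.7), all in the coding sequence, 5 of them on the Watson strand. The flanks of 500 bp on each side of both blocks held 0. With 3 counts put in place of 0 over both flanks, the blocks would be 3.8 and 3.47 times as dense as their flanks. These folds are not lower limits, because the counting error of the blocks is left out. A count of 0 also has a 95% interval of up to 3.69. The blocks held 11.4 and 10.4 sites per kb, 15.8 and 14.4 times the dextrose level over 2 kb from tRNA genes. Of the 62 and 106 bins, 7 (11.3%) and 8 (7.55%) held a site, against 0.841% of all nuclear bins and 0.672% of those over 2 kb from a tRNA gene. Segmentation of the dextrose sites found no edge in either region. All dextrose intervals of the GAL10-GAL1 block lay between 278229 and 278775 and those of URA3 between 116178 and 116954, within the stretches that galactose covered. No site of the blocks had more than 1 interval, against 2.83% of nuclear dextrose sites with 2 or more. Among their 2 and 5 Watson sites no pair overlapped by 5 bases, against 3.04% of nuclear dextrose Watson sites. The URA3 block had 1 pair at 3 bases and 1 at 6. Over the nuclear genome the dextrose pairs peaked at 6 bases, with 264 against 169 at 5. Over 2 kb from tRNA genes these counts were 226 and 42. Full-length intervals were 4 of 7 and 3 of 11.

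Between the media the counts differed 25.7-fold at the GAL10-GAL1 block (95% interval 12.2 to 64.9) and 13.9-fold at the URA3 block (95% interval 7.56 to 28.5). The nuclear genome differed 13.6-fold and its part over 2 kb from tRNA genes 8.70-fold (95% interval 8.50 to 8.90). Both block intervals contain the ratio of the whole genome. The blocks were delimited on galactose sites, which enter these ratios. With intervals of 96 bases alone the order turned at GAL10-GAL1, where 64 and 4 sites gave a ratio of 16, against 25.7 over the genome and 23992 and 947 sites over 2 kb from tRNA genes. No difference in ratio between the GAL10-GAL1 block and the genome is therefore drawn. Of the 7 dextrose sites at GAL10-GAL1, 5 were also galactose sites, and 4 of them had the same interval. Of the 11 at URA3, 2 were. Over the genome 57.1% of the dextrose sites were galactose sites too. The libraries were read on the same run and lane, and the part of any exchange of reads between them was not tested.

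The other galactose genes held far fewer sites than GAL10. Of the 11 listed genes besides GAL1 and GAL10, 1 had more galactose sites in its body than uniform placement gives, against 10.5% of all protein-coding genes, and 2 did in the 500 bp upstream, against 25.1%. The gene above in both was PGM1, a phosphoglucomutase, with 24 sites in its body and 36 upstream, and it lies 470 bp from a tRNA gene. GAL7, the transferase next to GAL10, had 11 sites in its body (13.9 under uniform placement) and 8 upstream (6.30 under uniform placement). The permease gene GAL2 had 9 and 5, the sensor gene GAL3 had 8 and 4, the activator gene GAL4 had 24 and 6, and the repressor gene GAL80 had 11 and 1. PGM2 had 9 sites in its body, UGP1, which makes UDP-glucose, had 7, GCY1, a reductase gene induced by galactose, had 7, and MTH1, a regulator of glucose transport, had 15. FUR4, the uracil permease gene that follows GAL1, had 7. The median body density of the 11 genes was 7.45 sites per kb, against 5.39 over all protein-coding genes and 51.0 in GAL10.

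**Figure D5:**
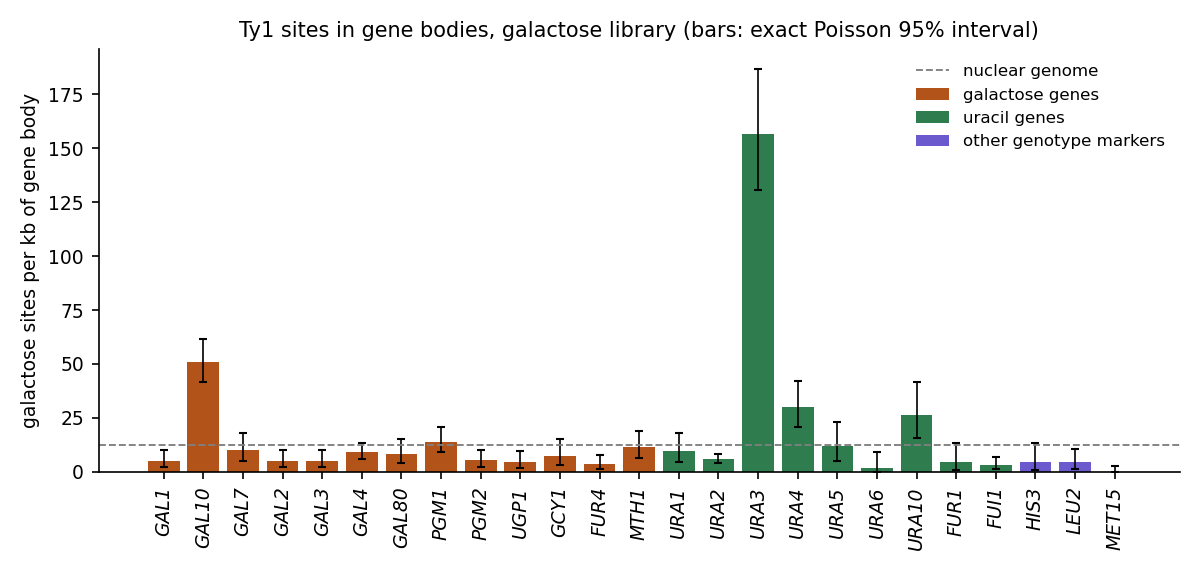
Galactose sites per kb of gene body (bars) with exact Poisson 95% intervals, for the galactose genes, the uracil genes and the other marker genes named in the strain's genotype, with the nuclear genome as a dashed line. URA3 stands at 157 sites per kb and GAL10 at 51.0, and the body of MET15 held 0 sites.

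The other uracil genes and the other markers of the genotype held fewer body sites than URA3. Of the 8 uracil genes besides URA3, 2 had more body sites than uniform placement gives and 3 had more upstream, against 10.5% and 25.1% of all protein-coding genes, a gap of few genes. URA4, the dihydroorotase gene, had 33 and 218, and URA10, an orotate phosphoribosyltransferase gene, had 18 and 30, and they lie 730 and 698 bp from a tRNA gene. The uridine permease gene FUI1 had 6 body sites and 8 upstream. URA1 had 9 body sites, URA2 had 39 over its long coding sequence, URA5 had 8, FUR1 had 3 and the uridylate kinase gene URA6 had 1. Of the markers named in the genotype, HIS3 held 3 galactose sites in its body, LEU2 held 5 and MET15 held 0. Uniform placement gives 8.36, 13.8 and 16.8 for them. HIS3 and LEU2 had 4.52 and 4.57 body sites per kb, near the median of 5.39 over all protein-coding genes. In the 500 bp upstream HIS3 held 3 sites, LEU2 held 0 and MET15 held 35. Both LEU2 and MET15 lie 352 bp from a tRNA gene. The body of URA3 held 126. In dextrose HIS3 and MET15 held 0, LEU2 held 1 and URA3 held 11. A count of 0 allows up to 3 sites at MET15. The sources used here do not say how far each deletion reaches.

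URA3 had the densest body of the 5337 protein-coding genes over 2 kb from a tRNA gene, with 157 sites per kb. RPL15A, a ribosomal protein gene, followed with 94.3, CCW12, a cell wall protein gene, with 57.2, GAL10 with 51.0 and YOL024W with 42.4. GAL1 ranked 2720. Likeness was also taken as pairs overlapping by 5 bases per kb, among the 312 genes with at least 20 sites. URA3 led with 12.4, before YOL024W (7.71), GAL10 (4.29), MCH2 (3.52) and CDA2 (3.19). Pairs per kb depend on site density, the measure that chose the regions, so these ranks are a description only. In the URA3 coding sequence other overlaps gave 2 to 8 pairs with a median of 4, against 10 at 5 bases. RPL15A had 1 pair and CCW12 none, against 9 in GAL10. Of those 9, 8 lay in the 129 bp of GAL10 inside the block, at 496 sites per kb. Other overlaps from 1 to 20 bases gave 5 to 11 pairs in GAL10, with a median of 7. The lower counts at RPL15A and CCW12 are therefore not read as a trait that sets GAL10 apart. Among all 6002 protein-coding genes, those next to tRNA genes included, URA3 ranked 25 and GAL10 91. For sharp edges, the position over 2 kb from tRNA genes with the largest step between neighbouring 100 bp lay at 365976 on chromosome XII, before SNR6, the U6 RNA gene, with 86 sites on its left and 15 on its right. The next lay in the ribosomal DNA spacer (459833, 4 and 70), then the GAL10 edge at 278224 (1 and 55). Other positions before SNR6 (366177, 59 and 6) and in the spacer (460179) gave the fourth and the fifth.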

How the data were processed

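Ty1 insertion libraries from 1 galactose and 1 dextrose culture were analysed. Per the labels' protocols, DNA was cut with MseI, ligated to adaptors, cut with BglII and amplified by PCR. Per the submitters' processing notes, the tools named were Picard 3.4.0, bedtools 2.31.1, SAMtools 1.22, BWA 0.7.19 and Trimmomatic 0.39, and the build was R64 (sacCer3). The sources used here do not give their settings. The deposited files list 170698 and 11577 aligned intervals with a mapping score of 30 to 60, which the authors did not normalize. Their names state that duplicates and multiply mapped reads were removed. Removal of duplicates limits the reads counted per position.

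Positions were counted from 1. Genes came from a RefSeq table of R64, and MET15 was matched by its synonym (MET17 in the table). Blocks were the densest segment of a Poisson segmentation of galactose sites over each region with 3 kb on each side (penalty of 3 times the logarithm of the length per change, smallest segment 20 bp). The segmentation was tested on simulated blocks of independent sites on a flat background. The real flanks were not flat, so that test does not show how well the edges here were placed. Flanks were 500 bp. Uniform placement used 12069662 positions, the highest coordinates of the 16 nuclear chromosomes. Python 3.11.15, numpy 2.4.6, pandas 2.3.3 and scipy 1.17.1 were used. Floors of 0 were read as 3 counts. No test was made, as each medium had 1 library.

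Members and lists were chosen with earlier results of these data known. Genes were named by rule: the members, their neighbours, the galactose, uracil and genotype marker genes, and the 5 genes or positions highest in each measure of likeness.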

Additional observations from a re-analysis of the deposited data

How the results depend on the processing

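No paired analysis was possible because each medium had 1 library. Of 73 recomputed values, 38 kept within the limits used (1.5-fold for counts and folds, the 95% interval for shares and ratios, 10 bp for edges) and 35 moved. No block fell below its flanks. The blocks were chosen as the densest segments of the same intervals, so that is no check of them. The causes were not tested, beyond what fewer intervals bring by construction. With intervals of 96 bases alone, the GAL10-GAL1 block held 64 sites at 34.7 times its flanks with 0 pairs and a right edge at 278781. The URA3 block then held 77 sites and 5 pairs, segmentation repeated on these intervals set its edges at 116092 and 118179, and the genome ratio of galactose to dextrose was 25.7. With intervals of 50 bases or more the GAL10-GAL1 block had 10 pairs. Sites from 2 or more intervals numbered 20 and 5, at 10.9 and 2.37 times the flanks, with 0 pairs in both blocks and 10% on the Watson strand at GAL10-GAL1. Merging sites within 5 bp left 60 and 87, the former at 8.14 times its flanks. Intervals in place of sites gave 12.1 times, and 3′ ends 12.4 times, at GAL10-GAL1. In bins of 20 bp, 90.3% and 88.7% of the blocks and 11.4% of the genome were hit. Edges at GAL10-GAL1 moved to 278213 and 278800 on the Watson strand, and the left edge moved to 278245 on the Crick strand. The largest step between 100 bp windows put its right edge at 278531 and the URA3 edges at 116233 and 116327. The URA3 right edge moved to 118179 with the stricter penalty, 118269 on the Watson strand and 117267 on the Crick strand, where the left edge was 116087. Both URA3 edges and the right GAL10-GAL1 edge thus moved by more than 10 bp under several alternatives, the left GAL10-GAL1 edge moved on single strands, and dextrose counts are too low to place any edge.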
